A study of Mus musculus with 20 samples.

Results

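The comparison described here is that of H3K27me3 in Jmjd3-/- cells at day 10 of reprogramming, with JMJD3 put back or not. Mouse embryonic fibroblasts (MEFs) of the Jmjd3 knockout, labelled C57Bl6J, were infected with retroviruses for Oct4, Sox2, Klf4 and c-Myc (OSKM), and vitamin C was part of the reprogramming medium. One culture also received a FLAG control vector and the other Jmjd3, and each gave 1 H3K27me3 ChIP-seq library. Members are the peaks of these 2 libraries, 5376 with FLAG and 4878 with JMJD3, 10254 of the 53171 peaks in the 10 H3K27me3 lists of the series. The other 8 lists come from MEFs and from days 5 and 10 in Jmjd3-/- and Jmjd3+/+ cells (the latter labelled C57BL/6J-OG2), again with 1 library per group. Every comparison therefore sets 1 library against 1 library, no p-value was computed, and the 95% intervals cover counting error only. The cultures are mixtures in which only some cells reprogram, so a peak in fewer cells and less of the mark per cell cannot be told apart. A peak list holds no RNA level, so the cell type named in the labels could not be checked with markers.

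H3K27me3 is written by the EZH enzymes of Polycomb repressive complex 2 and marks silent genes, above all CpG-rich start sites of developmental regulators. JMJD3, encoded by Kdm6b, and its relative UTX remove it. In fibroblasts on the way to pluripotency, some epithelial and pluripotency genes lose the mark while fibroblast and lineage genes are silenced. Both loss and gain of peaks can therefore occur. The paper did not see such loss at every pluripotency gene that became active.

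A FLAG peak that no JMJD3 peak overlapped by at least 1 bp is called FLAG-only, and the reverse JMJD3-only. With FLAG, 2387 of 5376 peaks were FLAG-only (44.4%, 95% Wilson interval 43.1 to 45.7), and with JMJD3, 1886 of 4878 were JMJD3-only (38.7%, 37.3 to 40.0). The remaining 2989 FLAG peaks were shared with 2992 JMJD3 peaks. Loss and gain of calls thus stood side by side. Peak lists do not give the amount of the mark, so a one-way change of its level cannot be read from them. The paper scaled its H3K27me3 signal by a Drosophila spike-in and reported that demethylation with JMJD3 was weaker or absent at day 10.

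The centres of high-scoring peaks of each class are shown first, because the classes differed in sequence as well as in position. Each line gives 300 bases of the GRCm38 (mm10) plus strand, 5′ to 3′, with CpG dinucleotides in capitals. The 3 FLAG-only sequences lay in a coding exon of 1700023F06Rik (chr11:103199283-103199582), in an intron of Hlf (chr11:90389383-90389682) and in a coding exon of Foxj1 (chr11:116334283-116334582). They held 17, 10 and 21 CpGs. The peak at St8sia5, which ranked between those of Hlf and Foxj1, is not printed.
1700023F06Rik: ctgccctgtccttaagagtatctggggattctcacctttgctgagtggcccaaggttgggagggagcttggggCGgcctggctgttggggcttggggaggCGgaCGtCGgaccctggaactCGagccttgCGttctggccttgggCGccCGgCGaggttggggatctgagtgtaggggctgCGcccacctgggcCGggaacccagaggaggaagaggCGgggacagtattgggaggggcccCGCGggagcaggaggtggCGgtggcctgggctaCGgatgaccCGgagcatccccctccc
Hlf: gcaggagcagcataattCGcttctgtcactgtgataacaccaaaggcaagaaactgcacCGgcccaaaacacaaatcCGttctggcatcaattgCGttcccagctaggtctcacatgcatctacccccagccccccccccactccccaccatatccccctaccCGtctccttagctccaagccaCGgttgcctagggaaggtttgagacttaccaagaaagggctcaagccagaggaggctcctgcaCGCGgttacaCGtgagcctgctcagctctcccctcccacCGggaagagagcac
Foxj1: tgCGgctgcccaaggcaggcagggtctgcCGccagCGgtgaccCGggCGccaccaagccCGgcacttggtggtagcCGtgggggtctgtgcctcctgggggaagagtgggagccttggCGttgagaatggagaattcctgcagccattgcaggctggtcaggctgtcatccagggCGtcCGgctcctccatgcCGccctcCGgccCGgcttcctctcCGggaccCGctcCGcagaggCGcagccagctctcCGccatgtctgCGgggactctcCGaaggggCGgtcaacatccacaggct
The 3 JMJD3-only sequences lay in introns of Gad2 (chr2:22623221-22623520) and Fev (chr1:74884486-74884785) and in a coding exon of Gbx1 (chr5:24526231-24526530). They held 20, 21 and 42 CpGs.
Gad2: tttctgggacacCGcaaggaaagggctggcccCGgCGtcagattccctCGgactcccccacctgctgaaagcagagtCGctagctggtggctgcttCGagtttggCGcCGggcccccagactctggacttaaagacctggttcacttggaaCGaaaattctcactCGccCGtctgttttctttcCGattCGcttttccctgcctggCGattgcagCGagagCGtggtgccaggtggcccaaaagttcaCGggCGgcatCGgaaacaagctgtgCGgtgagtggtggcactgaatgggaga
Fev: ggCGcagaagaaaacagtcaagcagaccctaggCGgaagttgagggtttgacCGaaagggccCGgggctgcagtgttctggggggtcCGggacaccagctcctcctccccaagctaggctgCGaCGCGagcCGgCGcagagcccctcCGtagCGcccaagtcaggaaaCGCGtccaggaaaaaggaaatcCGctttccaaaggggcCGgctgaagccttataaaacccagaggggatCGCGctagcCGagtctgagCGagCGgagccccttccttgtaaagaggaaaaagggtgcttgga
Gbx1: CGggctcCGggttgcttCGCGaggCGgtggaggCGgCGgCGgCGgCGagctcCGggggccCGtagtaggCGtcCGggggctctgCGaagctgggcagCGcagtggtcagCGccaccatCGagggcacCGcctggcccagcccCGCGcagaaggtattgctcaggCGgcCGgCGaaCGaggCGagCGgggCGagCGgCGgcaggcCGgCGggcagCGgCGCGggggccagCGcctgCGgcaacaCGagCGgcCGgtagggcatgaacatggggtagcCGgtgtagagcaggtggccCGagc
As a shared peak the coding exon of Egr4 (chr6:85512502-85512801) is given, chosen after the values were seen, since the 6 shared peaks above it lay outside coding exons or in sequence marked as repeats. It held 31 CpGs.
Egr4: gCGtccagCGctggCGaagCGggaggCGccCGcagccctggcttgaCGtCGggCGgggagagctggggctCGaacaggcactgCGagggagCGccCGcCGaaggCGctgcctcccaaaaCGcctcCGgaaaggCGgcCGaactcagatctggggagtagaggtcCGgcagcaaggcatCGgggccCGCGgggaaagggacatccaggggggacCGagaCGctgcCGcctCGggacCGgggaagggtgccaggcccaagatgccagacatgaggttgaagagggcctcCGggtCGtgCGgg

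Of the 10 highest FLAG-only peaks, 8 lay within 5 kb of a protein-coding start site and 9 were overlapped in at least 5 of the 8 other lists. The peak caller's score is on a scale that the sources do not state, so it was used to rank peaks within a list. In the FLAG list the first FLAG-only peak was that of 1700023F06Rik, 9115 bp from the start site, at rank 210 with a score of 41.46, and it was overlapped in all 8 other lists. Hlf, a bZIP transcription factor, followed at rank 298 (score 36.7, chr11:90389033-90390032) and was marked in 6 of the 8 lists, but in neither day 10 Jmjd3+/+ list. Foxj1, the transcription factor that drives motile cilia, stood at rank 373 (score 33.01) and was marked in 7 lists, the exception being day 10 Jmjd3+/+ with JMJD3. Lypd6b, which encodes a GPI-anchored LY6-type protein, had a score of 32.94 at its start site and was marked in 6 lists, with neither of the day 10 Jmjd3+/+ lists among them. Hlf and Lypd6b therefore lacked a call with JMJD3 in Jmjd3-/- cells and with either vector in Jmjd3+/+ cells at day 10. The other 6 of the 10 highest lay nearest to St8sia5, a sialyltransferase gene, Tnfrsf18 and S1pr5, which encode a TNF-receptor family member and a sphingosine-1-phosphate receptor, Mapk13, a p38 kinase gene, Eml2 and Rflna. The one nearest to Tnfrsf18 had its midpoint in a coding exon of Ttll10, a gene of the tubulin-modifying TTLL family.

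Most of the 10 highest JMJD3-only peaks sat beside a FLAG peak rather than in unmarked sequence. Gad2, which encodes an enzyme of GABA synthesis, had the first JMJD3-only peak at rank 101 with a score of 64.76 (chr2:22622871-22623870), and the nearest FLAG peak was 120505 bp away. At the Gad2 start site a peak was called in all 8 other libraries, so the day 10 Jmjd3-/- library with FLAG was the one without. Fev, the ETS factor of serotonergic neurons, had a score of 53.32, and its nearest FLAG peak ended 168 bp away. Gbx1, a homeobox gene, had a score of 49.89, with a FLAG peak 112 bp away. These 2 start sites were thus marked in both libraries, with the called interval shifted, and they are no gain of a marked gene. Among the others were peaks nearest to D430041D05Rik, Nkx6-1, 4933428G20Rik (within a coding exon of Srcin1), Lhx4, Pparg and Rbpjl (within a coding exon of Matn4). Nkx6-1 and Lhx4 are homeobox genes, and Pparg encodes the nuclear receptor that drives fat cell formation. Pparg resembled Gad2 in that its nearest FLAG peak was 225101 bp away. In all, 8 of the 10 highest JMJD3-only peaks had a FLAG peak within 5 kb, against 1 of the 10 highest FLAG-only peaks with a JMJD3 peak that near.

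**Figure D1:**
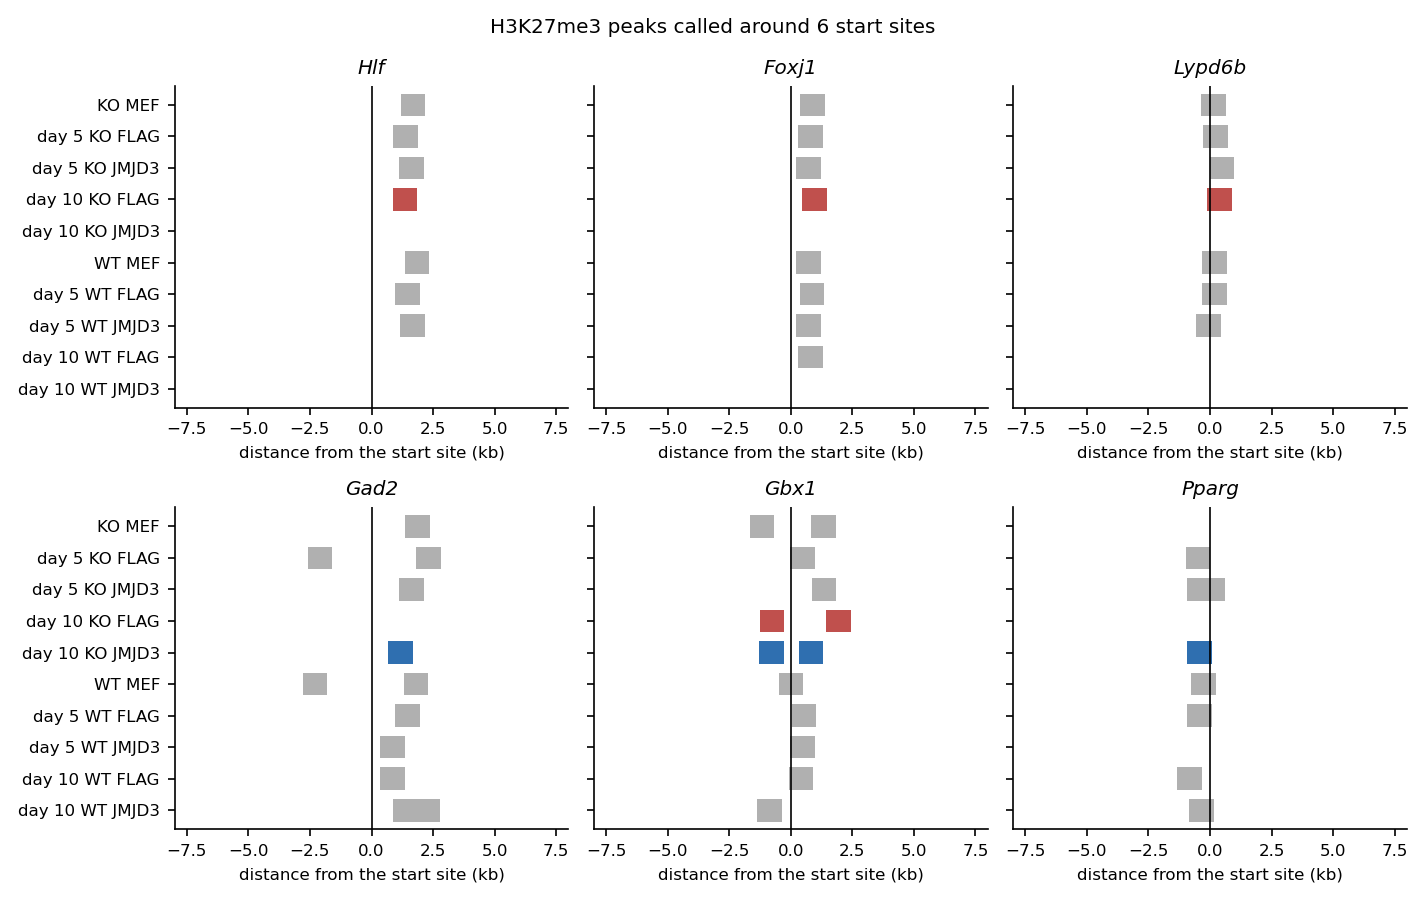
H3K27me3 peaks around the start sites of 3 genes with a FLAG-only peak (Hlf, Foxj1, Lypd6b) and 3 with a JMJD3-only peak (Gad2, Gbx1, Pparg), plotted by distance from the start site in kb (negative upstream) for the 10 lists, with the day 10 Jmjd3-/- lists in colour. At Gbx1 the JMJD3-only peak lies between 2 FLAG peaks, one of them 112 bp away, whereas at Gad2 no FLAG peak is near.

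The same asymmetry held over the whole classes. Of the JMJD3-only peaks, 409 of 1886 had a FLAG peak within 5 kb (21.7%), and of the FLAG-only peaks 346 of 2387 had a JMJD3 peak within 5 kb (14.5%), a difference of 7.19 points (95% Newcombe interval 4.87 to 9.54). With both lists cut to the length of the shorter the difference was 5.55 points (3.19 to 7.91). Peaks joined across gaps of up to 3 kb formed domains, and 506 JMJD3 peaks (10.4%) but 454 FLAG peaks (8.44%) belonged to domains of more than 1 peak, a difference of 1.93 points (0.798 to 3.07). Domains of at least 3 peaks held 90 JMJD3 and 54 FLAG peaks. FLAG peaks in domains of more than 1 peak were FLAG-only in 226 of 454 cases and single peaks in 2161 of 4922, a difference of 5.87 points (1.09 to 10.7) that turned to -9.95 points averaged over 4 score bins of equal size. New calls with JMJD3 thus lay closer to marked sequence than lost calls did, and the JMJD3 list was the more clustered of the 2 although it was the shorter.

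Among shared peaks the intervals were close but their order was only loosely kept. The start of a FLAG peak lay a median of 229 bp from that of its JMJD3 partner (quartiles 108 and 413). Spearman's rho between the ranks of partners was 0.559 over 2989 pairs, given as a description, since neighbouring peaks are not independent. A rank can be written as a percentage of its list, from the best at 0 to the last at 100. On that scale 482 shared peaks stood more than 25 points worse with JMJD3 and 394 more than 25 points better, with a median shift of 1.33 points to the worse. The highest shared peaks were repeat-rich intervals near Esp38, Gm10800 and Rpusd4, at the maximum score of 200, followed by those near Sfi1 and Ly6c2 and by Aida. These 6 peaks were also called in all 8 other lists. Egr4, an early growth response gene, and Cpeb1, a regulator of mRNA translation, were the highest with a midpoint inside the named gene and under 10% repeat-masked bases, at scores of 126.25 and 99.27. Between them stood peaks nearest to Gm8797, at 104.48, and to Grwd1 (in a coding exon of Grin2d), at 102.31.

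Loss and gain were both concentrated in the weaker peaks. The median score was 8.29 for FLAG-only and 15.32 for shared peaks in the FLAG list, and 8.27 for JMJD3-only peaks in theirs. In the best-scoring 10% of the FLAG list 2.04% of peaks were FLAG-only, and in the last 10% 81.4%. The JMJD3 list ran from 1.84% to 73.1%. Just above the lower end of the lists, at scores from 6.6 to 6.99 with FLAG, most calls were thus not shared. Differences between classes are therefore also given as the average over 4 score bins of equal size in a list, which compares peaks of like score.

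Peaks in one list alone were fewer at start sites. The midpoint of 75.3% of shared FLAG peaks, 47.4% of FLAG-only peaks and 48.2% of JMJD3-only peaks lay within 5 kb of a transcription start site (TSS), and the median distances were 922, 5927 and 5628.5 bp. Shared peaks had their midpoint in a coding exon in 18.4% of cases, against 6.12% of FLAG-only and 6.42% of JMJD3-only peaks. Read the other way, 1131 of 3383 FLAG peaks within 5 kb of a TSS were not called with JMJD3 (33.4%), but 1256 of 1993 farther away (63.0%), a difference of -29.6 points (-32.2 to -26.9) that was -12.8 points (-15.2 to -10.4) averaged over score bins. At day 5 of the same genotype this difference was -20.8 points (-5.37 over score bins), and at day 10 in Jmjd3+/+ cells -25.8 points (-12.0 over score bins). In each of these 3 pairs distal FLAG peaks thus lacked a JMJD3 peak more often than those near a TSS.

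**Figure D2:**
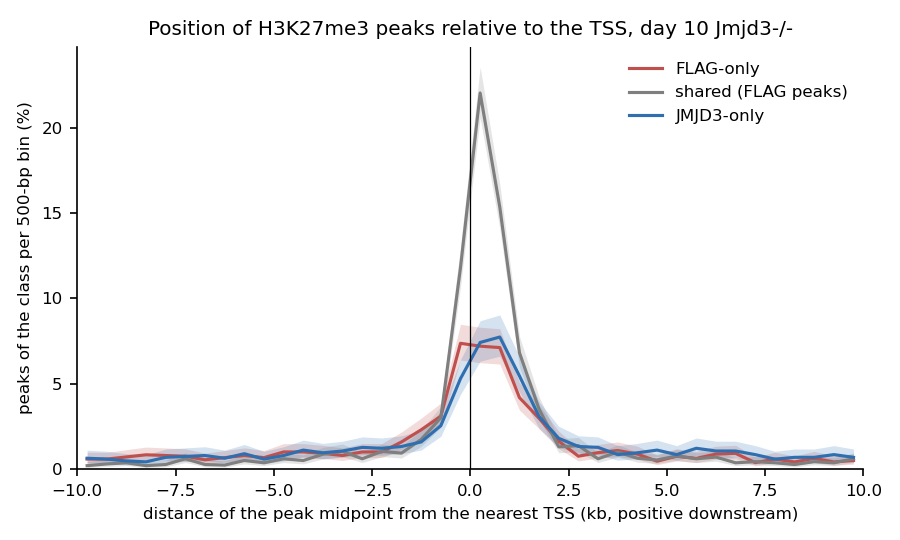
Share of the peaks of each class (percent per 500-bp bin, with 95% Wilson bands) by distance of the peak midpoint from the nearest TSS in kb, for FLAG-only, shared and JMJD3-only peaks. Shared peaks form a sharp crest just downstream of the start site, and the FLAG-only and JMJD3-only curves lie over each other at a lower height, with 47.4% and 48.2% of peaks within 5 kb.

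CpG content separated shared peaks from both other classes. A peak was called CpG-rich when over 50% of its bases were G or C and the ratio of observed to expected CpG was above 0.6. By this rule 41.6% of shared, 10.2% of FLAG-only and 10.8% of JMJD3-only peaks were CpG-rich, against 0.610% of all 1-kb windows of the genome. FLAG-only minus shared peaks gave -31.4 points (-33.6 to -29.3), and -20.6 points over score bins, whereas JMJD3-only minus FLAG-only peaks gave 0.583 points (-1.25 to 2.46). Lost and gained calls thus could not be told apart by CpG content. Of the CpG-rich FLAG peaks 16.3% had no JMJD3 peak, and of the others 55.1%. The median ratio of observed to expected CpG was 0.294 in both FLAG-only and JMJD3-only peaks, against 0.562 in shared peaks and 0.158 in the genome.

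**Figure D3:**
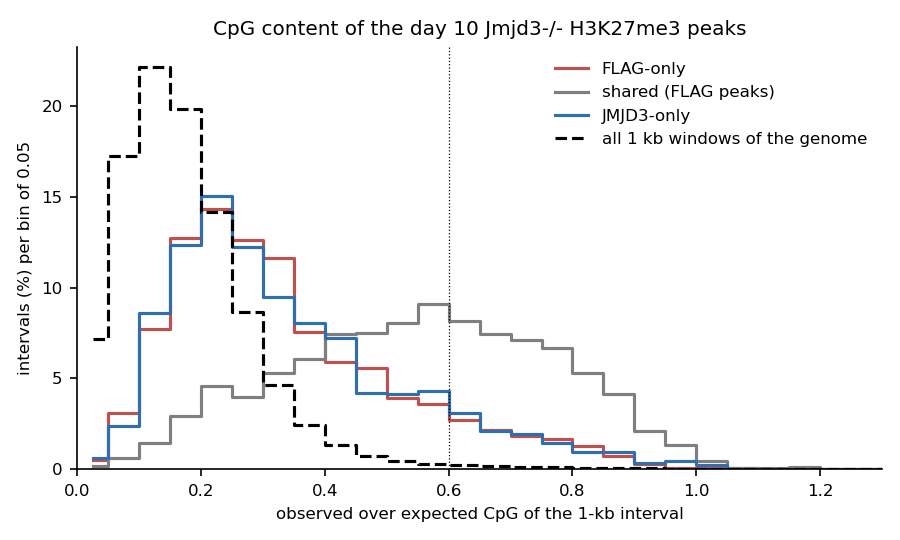
Distribution of the ratio of observed to expected CpG in the 1-kb intervals of each class and in all 1-kb windows of the genome (percent per bin of 0.05), with the limit of 0.6 dotted. FLAG-only and JMJD3-only peaks overlie each other around a median of 0.294 and shared peaks centre at 0.562.

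Short strings were searched on both strands for the factors of the reprogramming cocktail and of fibroblasts. The KLF string GGGNGTGG occurred in 43.7% of shared, 34.9% of FLAG-only and 33.7% of JMJD3-only peaks, beside 20.7% of all 1-kb windows. The octamer ATGCAAAT occurred in 1.91%, 4.19% and 3.71%, beside 8.52% of windows, and the AP-1 string TGANTCA in 13.2%, 21.3% and 19.1%, beside 26.6%. Over score bins FLAG-only minus shared peaks gave -5.02 points for KLF (-8.62 to -1.42), 1.60 for the octamer (0.448 to 2.75) and 5.76 for AP-1 (3.05 to 8.46). JMJD3-only minus shared JMJD3 peaks gave -5.39 (-9.27 to -1.52), 0.607 (-0.690 to 1.90) and 3.45 (0.664 to 6.23), so that their octamer difference was no longer detectable among peaks of like score. A match is no binding site.

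Actual KLF4 peaks, called at day 5 in Jmjd3+/+ cells, overlapped JMJD3-only peaks less often than FLAG-only or shared ones. A KLF4 peak from either vector overlapped 83 FLAG-only (3.48%), 180 shared FLAG (6.02%), 144 shared JMJD3 (4.81%) and 24 JMJD3-only peaks (1.27%). JMJD3-only minus FLAG-only peaks gave -2.20 points (-3.12 to -1.30). FLAG-only minus shared peaks gave -2.54 points (-3.67 to -1.41), but 1.03 points (-1.09 to 3.15) over score bins, so that direction turned with the score. JMJD3-only minus shared JMJD3 peaks kept its direction, at -3.54 points and at -2.73 points (-4.19 to -1.28) over score bins. Positions of FLAG-JMJD3 at day 5 fell in 11 FLAG-only, 23 shared FLAG and 8 JMJD3-only peaks, and no difference between the classes was detectable at these counts (FLAG-only minus shared -0.309 points, -0.742 to 0.135).

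Shared peaks were a lasting set, whereas many peaks of one list alone had no counterpart anywhere in the series. None of the 8 other H3K27me3 lists overlapped 755 FLAG-only (31.6%) and 637 JMJD3-only peaks (33.8%), but only 69 shared FLAG peaks (2.31%). At least 5 of the 8 lists overlapped 466 FLAG-only (19.5%), 2342 shared (78.4%) and 385 JMJD3-only peaks (20.4%). In Jmjd3-/- MEFs, the starting cells, 58.2% of shared peaks were already called, against 18.3% of FLAG-only and 16.9% of JMJD3-only peaks. JMJD3-only minus FLAG-only peaks gave -1.40 points there (-3.68 to 0.905), so that neither class was closer to the starting state.

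The order of FLAG-only and JMJD3-only peaks differed between the FLAG and the JMJD3 library at day 5 in Jmjd3-/- cells, where the JMJD3 list was the longer (6539 against 5643 peaks). With FLAG at day 5 in Jmjd3-/- cells, 34.9% of FLAG-only and 27.8% of JMJD3-only peaks were called, a difference of -7.02 points (-9.78 to -4.22). With JMJD3 at day 5 the order turned, with 34.9% and 39.6% and a difference of 4.75 points (1.83 to 7.67). The JMJD3 library of day 10 Jmjd3+/+ cells held 10.9% of FLAG-only and 17.0% of JMJD3-only peaks, a difference of 6.12 points (4.03 to 8.24), while its FLAG library held 28.8% and 27%. At day 5 in Jmjd3+/+ cells, where the FLAG list was the longer, the FLAG library held 39.8% and 35.0%, a difference of -4.79 points (-7.69 to -1.87), and the JMJD3 library 25.9% and 28.0%, a difference of 2.16 points (-0.515 to 4.85). Calls that differed between vectors were more frequent in both classes than in shared peaks, in either direction. Of the FLAG-only peaks called with FLAG at day 5 in Jmjd3-/- cells, 329 of 832 were not called with JMJD3 then, against 195 of 2482 shared peaks, a difference of 31.7 points (28.2 to 35.2) and of 22.3 points over score bins. The same number, 329 of the 832 called with JMJD3 at day 5, were not called with FLAG, so the difference from shared peaks does not give a direction by itself. In day 10 Jmjd3+/+ cells 548 of 688 FLAG-only and 759 of 2411 shared peaks called with FLAG had no JMJD3 call, a difference of 48.2 points (44.5 to 51.5) and of 36.4 over score bins.

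Direction can be read from the peaks called with 1 vector alone in another pair, as the share of them called with FLAG. At day 5 in Jmjd3-/- cells this share was 50% of 658 FLAG-only peaks, 42.6% of 458 shared FLAG peaks, 41.0% of 463 shared JMJD3 peaks and 28.2% of 510 JMJD3-only peaks. Each class is compared with the shared peaks of its own list. FLAG-only minus shared peaks gave 7.42 points (1.47 to 13.3), and JMJD3-only minus shared peaks -12.8 points (-18.7 to -6.82). At day 10 in Jmjd3+/+ cells, where the JMJD3 list was much the shorter, FLAG-only (82.2%) and shared peaks (80.8%) could not be told apart (1.33 points, -2.58 to 5.12), while JMJD3-only peaks stood lower than shared JMJD3 peaks, at 69.1% and 80.4% (-11.3 points, -16.1 to -6.59). At day 5 in Jmjd3+/+ cells the 2 differences were -2.32 points (-7.02 to 2.44) and -12.8 points (-18.3 to -7.20). Relative to shared peaks, the FLAG share was thus lower for JMJD3-only peaks in all 3 pairs. For FLAG-only peaks it was higher at day 5 in Jmjd3-/- cells alone. In both Jmjd3+/+ pairs most of these JMJD3-only peaks were still called with FLAG, 69.1% at day 10 and 63.75% at day 5. FLAG-only minus JMJD3-only peaks gave 21.8 points (16.2 to 27.1) at day 5 in Jmjd3-/- cells. In Jmjd3+/+ cells this difference was 13.1 points (8.11 to 18.1) at day 10 and 10.6 points (5.24 to 16.0) at day 5. These shares were not averaged over score bins.

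**Figure D4:**
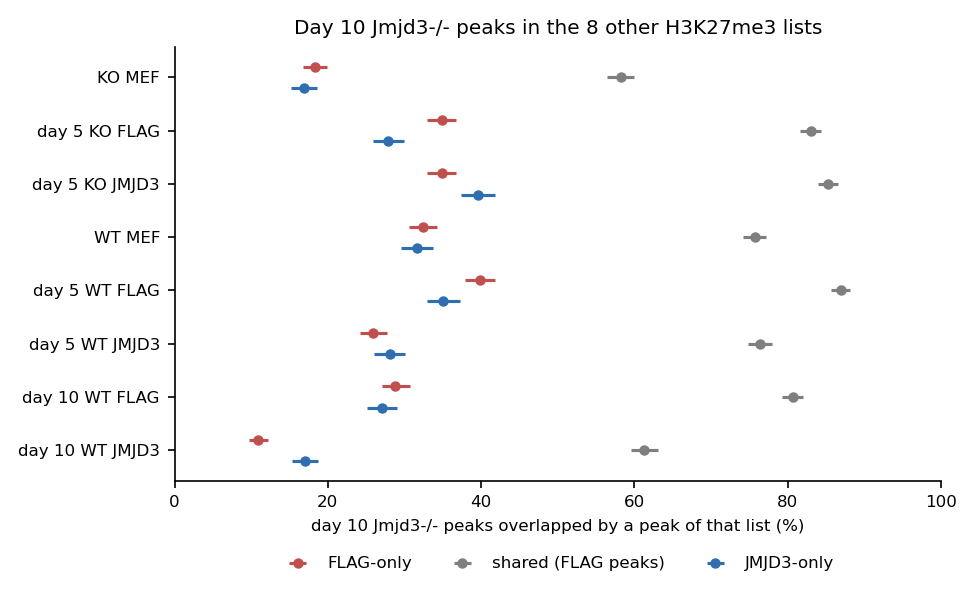
Share of FLAG-only, shared and JMJD3-only peaks of the day 10 Jmjd3-/- libraries that a peak of each of the 8 other H3K27me3 lists overlapped (percent, bars are 95% Wilson intervals). FLAG-only and JMJD3-only peaks stay below 40% and trade order between FLAG and JMJD3 libraries at day 5 (KO, Jmjd3-/-), while 58.2% to 86.9% of shared peaks are found in each list.

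Genes were assigned a TSS peak when a peak midpoint lay within 5 kb of a start site. Of 21951 protein-coding genes 3216 (14.7%) had a TSS peak in either list, 2057 in both (9.37%), 690 with FLAG alone (3.14%) and 469 with JMJD3 alone (2.14%). As shares of each list, 25.1% of the 2747 genes with a FLAG TSS peak had none with JMJD3, and 18.6% of the 2526 genes with a JMJD3 TSS peak had none with FLAG. These 2 shares are the background for the gene lists that follow. In 682 of the 690 and 453 of the 469 genes no TSS peak overlapped a peak of the other list, and in the rest an overlapping peak lay just past 5 kb. The 10 genes highest with FLAG alone were Hlf, St8sia5, Foxj1, Lypd6b, Mapk13, Eml2, Rflna, Aplp1, Rorb and Sall2. The 10 highest with JMJD3 alone were Gad2, Pparg, Spns2, Hoxb6, Dmrt3, Bicdl1, Irf5, Gm13889, Onecut2 and Mast4. Hoxb6 is of the kind just described, since its peak at rank 588 overlapped a FLAG peak whose midpoint lay beyond the limit. The remaining 9 had no such overlap.

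Homeobox transcription factors, the classic Polycomb targets, rarely lacked a JMJD3 peak once they were marked with FLAG. Of the 39 Hox genes 32 had a TSS peak in both lists, none with FLAG alone and 7 with JMJD3 alone (among them Hoxa2, Hoxa11, Hoxb6, Hoxc6, Hoxc10 and Hoxd8). Of the other homeobox genes 70 were marked in both lists, 2 with FLAG alone (Pou3f2 and Dlx1) and 13 with JMJD3 alone (Alx1, Alx4, Dlx2, Emx2, En1, Irx1, Irx2, Irx5, Isl1, Nkx2-3, Otx1, Pax3 and Prrx2). Left out after the data were seen were 3 genes of the list used that have no homeodomain, Hand1, Pax1 and Pax9, all marked in both. The share lost among genes marked with FLAG was 2.78% here, beside 25.1% over all genes, whereas the share with JMJD3 alone was 15.7%, beside 18.6% over all genes. The first share lay below its background with its interval (0.765 to 9.57%), and the second did not (9.39 to 24.98%). The first share was also low in forkhead lineage genes (5%, 0.888 to 23.6), secreted ligands (9.09%, 3.59 to 21.2) and voltage-gated potassium channels (8.82%, 3.05 to 23.0), so it was not particular to homeobox genes. Of the 70 genes marked in both, 49 ranked better with JMJD3 and 21 worse, with a median shift of -9.68 points of rank, beside 1.32 points over all 2057 genes marked in both. The 32 Hox genes had a median shift of -10.9 points, 21 better and 11 worse, but share peaks with their neighbours. Dlx1 and Dlx2 are neighbouring genes. Among the 13, En1, Irx2 and Irx5 had their nearest FLAG peak at least 71279 bp away, while that of Pax3 lay 2118 bp away. A gene counts as marked when any of its peaks is called, so a gene with several peaks can lose 1 and stay marked. At the level of peaks, 168 of 371 JMJD3 peaks nearest to one of these non-Hox genes were JMJD3-only (45.3%, beside 38.7% of the whole list), and 123 of 329 FLAG peaks were FLAG-only (37.4%, beside 44.4%).

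Genes of other transcription factor families that had a TSS peak mostly had one in both lists, as did all genes with a TSS peak (2057 of 3216). Of 38 bHLH lineage factors 26 were marked in both lists, 3 with FLAG alone (Mesp2, Nhlh1 and Olig1) and 3 with JMJD3 alone (Atoh8, Neurod6 and Neurog3). In the same order the 19 Sox genes had 9, 1 (Sox3) and 2 (Sox6 and Sox21), with 7 in neither list. The 25 forkhead lineage genes had 19, 1 (Foxj1) and 1 (Foxf2), the 17 T-box genes 9, 0 and 2 (Tbx3 and Tbx18), and the 6 GATA factors 5, 0 and 0. The share lost was 10.3% in bHLH factors (3.58 to 26.4), 10% in Sox genes (1.79 to 40.4) and 0% in T-box genes (0 to 29.9). Each interval held the 25.1% of all genes. Their shares with JMJD3 alone were 10.3% (3.58 to 26.4), 18.2% and 18.2% (both 5.14 to 47.7), and these intervals held the 18.6% of all genes. Of the 52 secreted ligands 40 were marked in both, 4 with FLAG alone (Bmp8b, Fgf21, Lefty1 and Lefty2) and 1 with JMJD3 alone (Wnt8b). Lefty1 and Lefty2, inhibitors of Nodal signalling, stood low in the FLAG list, at ranks 3515 and 4014.

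The epithelial genes had a larger share without a JMJD3 peak than all genes did, but not beyond counting error. These genes build the junctions and keratins that fibroblasts acquire early in reprogramming, and of the 21 marked with FLAG 8 had no TSS peak with JMJD3 (38.1%, 20.8 to 59.1, beside 25.1% over all genes, which lies within that interval). They were Cdh1 (E-cadherin), Cldn6, Cldn9 and Cldn11 (claudins of tight junctions), Dsp (desmoplakin), Krt19 (a keratin), Lad1 and Marveld3. Cldn6 and Cldn9 are neighbours and share a peak. Lad1 had the best FLAG rank of the 8, at 1312 (score 17.86), and Krt19 the worst, at 4913 (score 6.92). Cdh1 was at rank 3037 with FLAG, 56.5% down its list, and stood 6.54% down the list of Jmjd3-/- MEFs, 16.2% with FLAG and 71.4% with JMJD3 at day 5. In Jmjd3+/+ cells it had no call at day 10 with either vector. Dsp, at 5.32% of the list in Jmjd3-/- MEFs, 36.2% with FLAG at day 5 and 29.5% with FLAG at day 10, was called with JMJD3 on neither day and in neither genotype. Of the 13 epithelial genes marked in both lists, Grhl2 went from rank 241 to 3665 and Ovol2 from 325 to 2637, both transcription factors of epithelial identity. Esrp1, a splicing factor of epithelia, went from 390 to 260, so the list did not move as 1 block. Epcam, an epithelial adhesion gene, was weak in both, at ranks 4090 and 3421. Cldn3 and Grhl1 had a TSS peak with JMJD3 alone.

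The same list lost calls in the other pairs of libraries. Without a JMJD3 peak were 8 of 25 epithelial genes at day 5 in Jmjd3-/- cells (32%, beside 20.6% over all genes), 12 of 21 at day 10 in Jmjd3+/+ cells (57.1%, beside 41.4%) and 9 of 24 at day 5 in Jmjd3+/+ cells (37.5%, beside 31.8%). In all 4 pairs the share stood above its background, and with so few genes each interval held the background value.

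Fibroblast matrix genes were marked with JMJD3 alone more often than all genes. None of the 5 marked with FLAG lacked a JMJD3 peak (Lox, Loxl1, Pdgfra and Thy1 among them), and 6 had a TSS peak with JMJD3 alone, which is 54.5% of the 11 marked with JMJD3 (28.0 to 78.7, beside 18.6% over all genes). They were Cdh11 (a mesenchymal cadherin, rank 1748), Col1a1 and Col5a1 (fibrillar collagens, ranks 3097 and 2603), Fbn1 (fibrillin, 3959), Postn (periostin, 4698) and Tgfb1 (2619). None of the 6 ranked better than 1748 in the JMJD3 list, and the nearest FLAG peak was between 12321 and 1257621 bp away. Col1a1, Fbn1 and Postn had no TSS peak in any of the 8 other lists. Cdh11 had one with FLAG alone at day 10 in Jmjd3+/+ cells, and Col5a1 and Tgfb1 had one with both vectors there. No gene of the list had a TSS peak with JMJD3 alone at day 5 in Jmjd3-/- cells or at either day in Jmjd3+/+ cells, so the pattern was seen in this 1 pair.

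Mesenchymal transcription factors were mixed. With FLAG alone were Meox1, Osr1 and Snai1, with JMJD3 alone Prrx2, and 6 were marked in both, among them Foxc2, Tbx5, Twist1 and Twist2. All 6 ranked better with JMJD3, Twist2 from 5330 to 902, with a median shift of -14.9 points. Snai1, a repressor of Cdh1, had one of the weakest FLAG calls, at rank 5272 of 5376.

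Pluripotency genes marked in 1 library alone could not be told apart from the background in number. Of 33 genes 12 were in both, 1 with FLAG alone (Lefty1), 1 with JMJD3 alone (Tbx3) and 19 in neither. The share lost was 7.69% (1.37 to 33.3, beside 25.1% over all genes). The share with JMJD3 alone was 7.69% too (1.37 to 33.3, beside 18.6%). Of the 12 marked in both, 4 ranked better with JMJD3 and 8 worse, with a median shift of 6.57 points. Over all 2057 genes marked in both, 948 ranked better and 1109 worse, with a median shift of 1.32 points. Mycn went from rank 227 to 2331 and Sall4 from 829 to 3553, whereas Lin28b went from 2844 to 860 and Prdm14 from 1353 to 372. Lin28a, at 36 and 70, and Esrrb, at 280 and 75, stayed near the top. Among the genes of the vectors Klf4 (ranks 47 and 49) and Sox2 (570 and 46) were marked in both and Myc with JMJD3 alone (rank 1817). DNA of the retroviral copies maps to these genes, and its part in the calls was not tested. Of the CDK inhibitors Cdkn1c was marked in both and Cdkn2a, the Ink4a/Arf locus that blocks proliferation in passaged fibroblasts, with FLAG alone at rank 4260 (score 7.59). At day 5 in Jmjd3-/- cells Cdkn2a had a call with both vectors, at rank 4857 with FLAG and 3198 with JMJD3, and in Jmjd3+/+ cells a call with FLAG at day 5, at rank 3440, but none with JMJD3 then and none with either vector at day 10.

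Few genes of the mark's own machinery had a TSS peak, 21.9% of 32 beside 14.7% of all genes. No interval was computed for this share, so no difference from all genes is read from it. Of the 7 marked with FLAG 14.3% had no JMJD3 peak (2.57 to 51.3), an interval that held the 25.1% of all genes. Of 32 Polycomb and H3K27 demethylase genes 6 were marked in both, among them Bmi1, Cbx2 and Cbx8, 1 with FLAG alone (Pcgf3) and 25 in neither. Bmi1, a subunit of Polycomb repressive complex 1 and a repressor of Cdkn2a, had rank 209 with FLAG and 4830 with JMJD3, near the top of one list and the end of the other. Kdm6b itself (chr11:69398508-69413675, minus strand) had no peak with FLAG and 1 with JMJD3 (chr11:69404769-69405768, score 23.37, rank 980), with its midpoint in a coding exon. The day 5 JMJD3 libraries of both genotypes had an overlapping peak there and none of the other 6 libraries did, so in 3 of 4 JMJD3 libraries the coding sequence carried a call. Reads from the Jmjd3 vector map to this exon and cannot be told apart from reads of the locus.

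Neuronal gene families and families outside development were also counted. Voltage-gated potassium channels had 31 genes in both lists, 3 with FLAG alone (Kcna7, Kcnh2 and Kcnq5) and none with JMJD3 alone. Of 94 neurotransmitter receptors 45 were in both, 7 with FLAG alone (among them Chrm1, Chrng, Drd1, Drd2, Glrb and Htr3b) and 9 with JMJD3 alone (Chrna5, Gabrr1, Grik1, Grin2b, Grm3, Grm4, Htr1b, Htr2a and Htr5a). Both sets held receptors for acetylcholine and serotonin. The 7 were 13.5% of those marked with FLAG (6.68 to 25.3) and the 9 were 16.7% of those marked with JMJD3 (9.02 to 28.7). Both intervals held the share over all genes, 25.1% and 18.6%. The 69 protocadherins had 6, 1 (Pcdh15) and 4 (Pcdh7, Pcdh19, Pcdh20 and Pcdhac1). These 4 were 40% of those marked with JMJD3 (16.8 to 68.7), an interval that also held 18.6%. Zfp genes had 7, 5 (Zfp467, Zfp580, Zfp593, Zfp664 and Zfp800) and 3 (Zfp202, Zfp541 and Zfp703) of 365, and olfactory receptor genes 1, 1 (Olfr1410) and 4 (Olfr94, Olfr222, Olfr986 and Olfr1513) of 1093. Of 76 ribosomal protein genes 1 was marked in both and 75 in neither. Ribosomal protein, olfactory receptor and Zfp genes were thus almost free of peaks in both libraries.

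**Figure D5:**
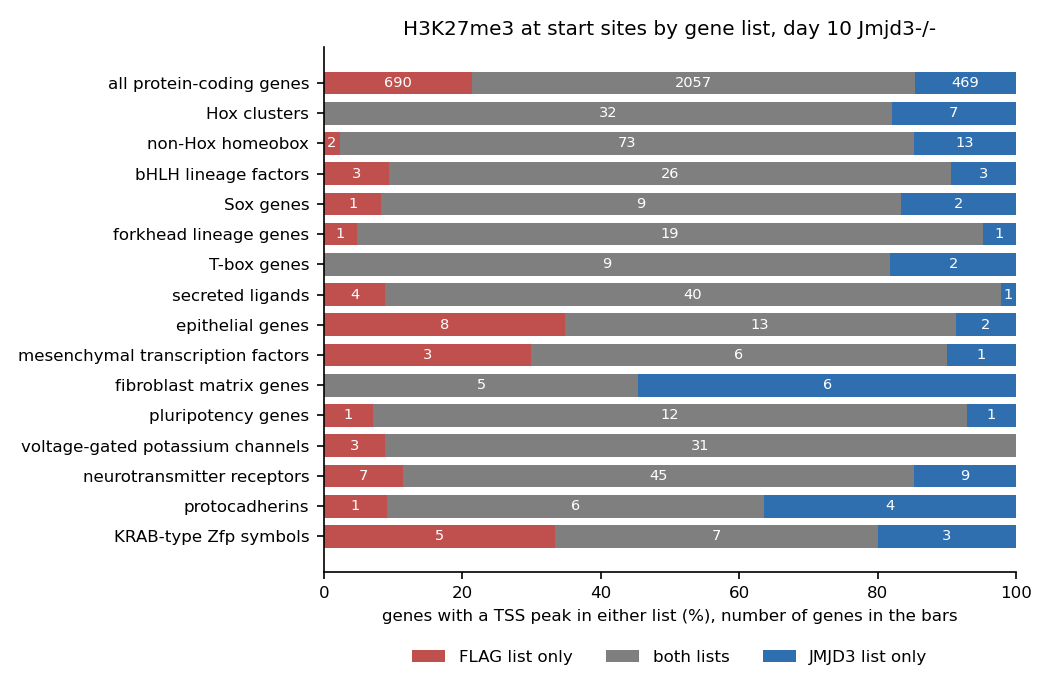
Genes with a TSS peak in either day 10 Jmjd3-/- library by gene list, as percent with FLAG only, in both and with JMJD3 only, with the number of genes in the bars and all protein-coding genes (690, 2057 and 469) on top. The non-Hox homeobox list, drawn with Hand1, Pax1 and Pax9, shows a narrow FLAG-only bar (2 genes), epithelial genes a wide one (8) and fibroblast matrix genes a wide JMJD3-only bar (6).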

How the data were processed

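H3K27me3 ChIP-seq peak lists of 2 libraries were compared, those of day 10 Jmjd3-/- cells with FLAG or JMJD3, with 12 other lists of the series as context, 1 library per group as labelled. The authors mapped their reads to mm10 with Bowtie2 (version 2.2.0 in the submitters' processing notes) and called H3K27me3 peaks per library with DFilter. Drosophila chromatin was added as a spike-in, and whether it entered the peak calls is not given in the sources used here. The deposited H3K27me3 lists hold intervals of 1000 bp with a score from 6.56 to 200 on an unstated scale, used only for ranks. The deposited KLF4 and JMJD3 lists were used as positions without a value. The deposited lists hold no read numbers. The study gives the mapped reads of each library, slightly more for JMJD3 than for FLAG, and they entered no value here.

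Peaks counted as shared when they overlapped by 1 bp or more, which was checked against bedtools 2.31.1, and placed by their midpoint on GENCODE M21 basic transcripts of GRCm38, the same build as mm10. CpG counts, motifs and sequences came from the RefSeq GRCm38.p6 genome. Shares carry Wilson and differences Newcombe intervals. Averages over score bins weight 4 bins of equal size equally. Scripts ran in Python 3.11.15 with numpy 2.4.6 and scipy 1.17.1 and were tested on simulated lists. Members and gene lists were chosen with earlier results of these data known. Named were the 10 highest peaks of each class and genes of each kind, list members marked in 1 library and up to 4 examples marked in both, and Kdm6b. A few genes that this rule names are not reported here. Alternatives covered the overlap, list length, score, chromosomes, TSS distance, joining gap and repeats.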

Additional observations from a re-analysis of the deposited data

Results flagged for a closer look

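The number of H3K27me3 peaks with JMJD3 over that with FLAG was 0.907 at day 10 in Jmjd3-/- cells (95% Poisson interval 0.873 to 0.943) and 1.16 at day 5 (1.12 to 1.20). The ratio lay on opposite sides of 1 at the 2 days, with 1 library on each side, and the difference between the days was not tested.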

How the results depend on the processing

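No paired analysis was possible because each group holds 1 library and no result comes from a test. Of 106 values under other settings for 15 results, 62 stayed within the interval of the reported value or within 1.5 times the reported count, 37 moved past it, and 7 changed the sign of a difference whose reported interval did not hold 0. The added settings (no peaks over 50% repeat-masked, and every setting of the 5 kb difference between the classes) were chosen after the data were seen.

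With an overlap of at least 50% the share of FLAG-only peaks was 54.1% and of JMJD3-only peaks 49.3%, with peaks within 1 kb counted as shared 42.0% and 35.8%, among the better-scoring 50% of either list 36.1% and 29.6%, and with lists of equal length 40.6% and 40.2%. The TSS difference was -24.4 points at 50% overlap, -19.6 among the better-scoring 50% and -12.8 over score bins. The difference between multi-peak and single-peak domains was 10.7 at 50% overlap and 17.0 with a joining gap of 1 kb. It turned to -1.83 with peaks within 1 kb shared, -4.99 among the better-scoring 50%, -6.59 with equal lists, -3.98 with a gap of 10 kb and -9.95 over score bins, and the cause was not tested. The share of FLAG-only peaks within 5 kb of a JMJD3 peak was 29.8% at 50% overlap, 9.57% with peaks within 1 kb shared, 12.7% among the better-scoring 50%, 7.25% at 2 kb and 22.3% at 10 kb. The difference between JMJD3-only and FLAG-only peaks in this measure was 4.78 points among the better-scoring 50%, 3.20 at 2 kb and 10.7 at 10 kb.

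Shared minus FLAG-only peaks called in Jmjd3-/- MEFs gave 32.1 points at 50% overlap, 43.0 with peaks within 1 kb shared, 30.1 among the better-scoring 50% and 23.5 over score bins. At 50% overlap, among the better-scoring 50% and over score bins, the day 5 FLAG difference was 42.7, 37.0 and 27.5 points, the day 5 JMJD3 difference 42.2, 33.5 and 26.9, and the difference in calls without JMJD3 in day 10 Jmjd3+/+ cells 38.9, 43.9 and 36.4. The same difference at day 5 in Jmjd3-/- cells was 26.7 among the better-scoring 50% and 22.3 over score bins. The KLF4 difference turned to 1.54 points among the better-scoring 50% and 1.03 over score bins, and the cause was not tested. The JMJD3 position difference, whose interval held 0, was 0.0456 at 50% overlap and 0.183 among the better-scoring 50%, both of the other sign. Lists without read numbers, 1 library per group and the strong tie between score and class limit all comparisons, and a peak missing from a list may lie just under its threshold.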
